A study of Homo sapiens with 12 samples.

Results

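The genes described here are the 3 superoxide dismutase genes SOD1, SOD2 and SOD3 and 6 genes known as targets of the transcription factor NRF2, namely HMOX1, NQO1, GCLC, GCLM, TXNRD1 and SRXN1. They were chosen by name, and each is read from its probe set with a single gene symbol. All 9 had exactly 1 such probe set and none was on a probe set shared with another gene, out of 17958 genes compared in all. Expression was measured on 12 arrays of the mesenchymal breast cancer line BT549, which is triple-negative (no oestrogen or progesterone receptor and no amplified HER2), in 4 groups of 3 arrays. The groups were c-Jun siRNA with TNFα, control siRNA with TNFα, c-Jun siRNA with vehicle, and control siRNA with vehicle. All cells were transfected for 72 hours, with a control siRNA or with a pool of siRNAs against c-Jun, and were then kept for 6 hours with vehicle or with the inflammatory cytokine TNFα (tumour necrosis factor alpha). c-Jun is a subunit of the transcription factor AP-1, and the design asks how far the TNFα response depends on it. All groups share 1 cell line, and nothing in the labels says that replicates were separate cultures, so p-values measure the spread between these arrays.

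Superoxide dismutases turn superoxide into hydrogen peroxide. SOD1 is the copper-zinc enzyme of the cytosol, SOD2 the manganese enzyme of mitochondria and a well known target of NF-kB, which TNFα activates, and SOD3 is the secreted enzyme. NRF2, the product of NFE2L2, is held low by KEAP1 in resting cells. On oxidative or electrophilic stress it escapes degradation, pairs with a small MAF protein and binds the antioxidant response element, a DNA motif that AP-1 sites resemble and that the repressor BACH1 also occupies. Its targets make glutathione (GCLC and GCLM), reduce thioredoxin (TXNRD1), repair oxidised peroxiredoxins (SRXN1), reduce quinones (NQO1) and break down haem (HMOX1).

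Promoter windows show where the letters of that element lie in these genes, as a description of the sequence only. RefSeq windows on GRCh38.p14, from 250 bases before to 50 bases after an annotated start site, matched 7 of the 9 genes, with 11 windows. SOD1 and HMOX1 had no window, so no motif was searched in them. Sequence outside the windows was not searched for any gene. The element was searched as TGACNNNGC on both strands and was found in 3 windows of 2 genes, GCLM and TXNRD1. The same letters occur in 13.3% of all 35116 windows. GCLM and TXNRD1 are printed because both hold it and both rose with TNFα, and the capitals mark the element. SOD2, GCLC and SRXN1 rose with TNFα too and had no match in their windows. In GCLM it reads TGACTAAGC on the opposite strand and begins 34 bases before the start site. The upstream TXNRD1 start has matches that begin 99 and 8 bases before it, TGACTTCGC on the gene's strand and TGACGGAGC on the opposite strand. The downstream start has TGACAAAGC on the opposite strand, which begins 102 bases before it.
GCLM promoter, chr1:93909381-93909680 (minus strand): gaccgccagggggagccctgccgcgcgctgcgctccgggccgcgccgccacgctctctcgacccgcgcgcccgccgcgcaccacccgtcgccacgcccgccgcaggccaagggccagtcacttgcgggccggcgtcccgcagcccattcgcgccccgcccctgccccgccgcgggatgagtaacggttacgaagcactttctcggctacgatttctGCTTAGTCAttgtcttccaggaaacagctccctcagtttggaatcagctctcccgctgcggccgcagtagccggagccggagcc
TXNRD1 promoter, chr12:104215529-104215828 (plus strand): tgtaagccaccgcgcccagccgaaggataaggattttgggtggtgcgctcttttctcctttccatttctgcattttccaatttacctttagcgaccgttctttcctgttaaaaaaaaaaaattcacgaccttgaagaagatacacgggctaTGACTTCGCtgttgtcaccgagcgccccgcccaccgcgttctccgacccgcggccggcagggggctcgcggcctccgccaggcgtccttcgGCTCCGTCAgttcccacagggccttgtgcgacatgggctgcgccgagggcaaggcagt
TXNRD1 promoter, chr12:104286782-104287081 (plus strand): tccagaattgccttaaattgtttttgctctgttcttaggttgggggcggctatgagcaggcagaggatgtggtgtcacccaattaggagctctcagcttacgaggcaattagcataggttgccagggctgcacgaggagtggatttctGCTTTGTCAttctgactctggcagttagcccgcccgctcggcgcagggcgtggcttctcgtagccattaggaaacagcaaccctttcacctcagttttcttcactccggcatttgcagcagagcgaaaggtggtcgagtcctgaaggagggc

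SOD2 is printed as the gene with the largest TNFα response of the 9. It has 4 windows, and the one with the most GC boxes (GGGCGG on either strand, 6 matches, of which some overlap each other) is given with those boxes in capitals. At least 1 GC box lies in 8 of the 11 windows and in 45.0% of all windows. The AP-1 site, TGANTCA, which is its own reverse complement, was in none of the 11 windows and in 7.71% of all windows. The 10-letter NF-kB site was in none of the 11 either and in 11.3% of all. The element and the AP-1 site can share letters, which did not arise in these windows.
SOD2 promoter, chr6:159693192-159693491 (minus strand): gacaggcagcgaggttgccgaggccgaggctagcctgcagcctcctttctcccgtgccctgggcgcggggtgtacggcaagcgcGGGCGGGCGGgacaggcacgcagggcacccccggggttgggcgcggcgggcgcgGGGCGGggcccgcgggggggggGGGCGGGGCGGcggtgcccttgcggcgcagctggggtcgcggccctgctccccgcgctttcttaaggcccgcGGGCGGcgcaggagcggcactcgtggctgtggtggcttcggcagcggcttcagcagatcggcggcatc

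JUN itself, the siRNA's target, followed the labels. It read 10.36, 10.33 and 10.39 (log2 expression, replicates 1 to 3) with c-Jun siRNA and TNFα, against 11.12, 11.05 and 11.05 with control siRNA and TNFα. With vehicle it read 9.82, 9.85 and 9.81 under c-Jun siRNA, against 10.36, 10.35 and 10.36 under control siRNA. The knockdown was partial: JUN stood at 61.1% of its control siRNA level with TNFα and at 69.5% with vehicle, and the groups did not overlap in either. Medians of the 12 arrays lay between 5.62 and 5.68. All 6 markers of mesenchymal triple-negative cells were above that level, while ESR1, PGR, CDH1, EPCAM and FOXA1 of 9 luminal and epithelial markers were below it. So were 5 of 6 leukocyte markers and 4 of 6 endothelial ones. The other luminal and epithelial markers, ERBB2 (mean 8.81), KRT18 (8.81), GATA3 (8.46) and KRT8 (6.03), were above it. With c-Jun siRNA CDH1 was higher by 0.95 under TNFα and 0.55 under vehicle, and KRT18 by 0.72 and 0.77. GATA3 was higher too, by 0.28 under TNFα and 0.19 under vehicle. FOXA1 was lower under vehicle, at -0.37. Of the 6 mesenchymal markers, c-Jun siRNA had 1 higher and 2 lower under TNFα, and 1 higher and 5 lower under vehicle. Of all genes 14.1% were higher and 14.4% lower under TNFα, and 14.4% higher and 14.5% lower under vehicle. FN1 fell most, at -0.6 under TNFα and -0.45 under vehicle. A second FN1 probe set, with a mean of 4.57, gave -0.12 under TNFα and 0.08 under vehicle. With TNFα GATA3 fell, at -1.24 under c-Jun siRNA and -1.33 under control siRNA, while CDH1 rose by 0.48 under c-Jun siRNA. KRT18 fell with TNFα too, at -0.38 under c-Jun siRNA and -0.32 under control siRNA. ERBB2 fell under c-Jun siRNA, at -0.17, and FOXA1 under control siRNA, at -0.39. The mean log2 level of the endothelial list ran from 5.30 to 5.32 with c-Jun siRNA and TNFα, 5.08 to 5.10 with control siRNA and TNFα, 5.19 to 5.27 with c-Jun siRNA and vehicle, and 4.86 to 4.99 with control siRNA and vehicle. PECAM1, CDH5, KDR and VWF were the 4 below the array medians, and ROBO4 (mean 7.76) and TEK (mean 6.30) the others. With c-Jun siRNA ROBO4 was higher by 0.65 under TNFα and 1.05 under vehicle, and TEK by 0.61 under TNFα and 0.93 under vehicle. With TNFα ROBO4 was higher by 0.58 under c-Jun siRNA and 0.98 under control siRNA, and TEK by 0.28 under control siRNA, while its -0.04 under c-Jun siRNA did not pass. The part of these markers in the results was not tested. The leukocyte list ran from 5.06 to 5.25 over all arrays. Within it ITGAM (mean 5.05) was higher with TNFα, by 0.69 under c-Jun siRNA and 0.78 under control siRNA. CD14 (mean 4.73) was lower with TNFα under control siRNA, at -0.3. The array names carry a position code, read here as a plate column, in which c-Jun siRNA with TNFα and c-Jun siRNA with vehicle share no column, so that column and TNFα cannot be told apart for that pair without the other groups. The name of c-Jun siRNA TNFα replicate 3 reads as a second run of replicate 1. The SD of their differences over genes was 0.121, against 0.119 to 0.142 for the other pairs of replicates.

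TNFα raised SOD2 and most of the NRF2 targets under both siRNAs, and none of the 9 passed as lower with TNFα. With c-Jun siRNA 6 of the 9 genes passed a limma adjusted p under 0.05, all of them higher, where 29.6% of all genes passed, 11.3% higher and 18.3% lower. With control siRNA 6 passed too, all higher, where 35.7% of all genes passed, 13.8% higher and 21.9% lower. They were the same genes, SOD2, HMOX1, GCLC, GCLM, TXNRD1 and SRXN1, and SOD1, SOD3 and NQO1 did not pass in either. The median log2 fold change of the 9 genes was 0.43 with c-Jun siRNA and 0.41 with control siRNA, beside -0.02 over all genes in both. The c-Jun siRNA changed fewer of them. With TNFα 3 of 9 were higher and none lower, where 28.5% of all genes passed, 14.1% higher and 14.4% lower. With vehicle 3 were higher and 1 was lower, where 28.9% of all genes passed, 14.4% higher and 14.5% lower. With arrays centred on their medians 38.8% of all calls with vehicle were lower, against 50.2% as deposited, and HMOX1 stayed the 1 called member below 0. With 9 genes, totals of 3 and 4 called are not far from that background. The difference between the TNFα responses under the 2 siRNAs, their interaction, passed for HMOX1 alone, where 5.47% of all genes passed, 1.88% with a higher and 3.59% with a lower value. Within position columns the counts were 6 of 9 for TNFα with control siRNA (column 7), 4 for c-Jun siRNA with vehicle (column 5) and 2 for c-Jun siRNA with TNFα (columns 7 and 9 alike). With the column as a fixed block 5 passed for TNFα with c-Jun siRNA, GCLC being the 1 lost.

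**Figure D1:**
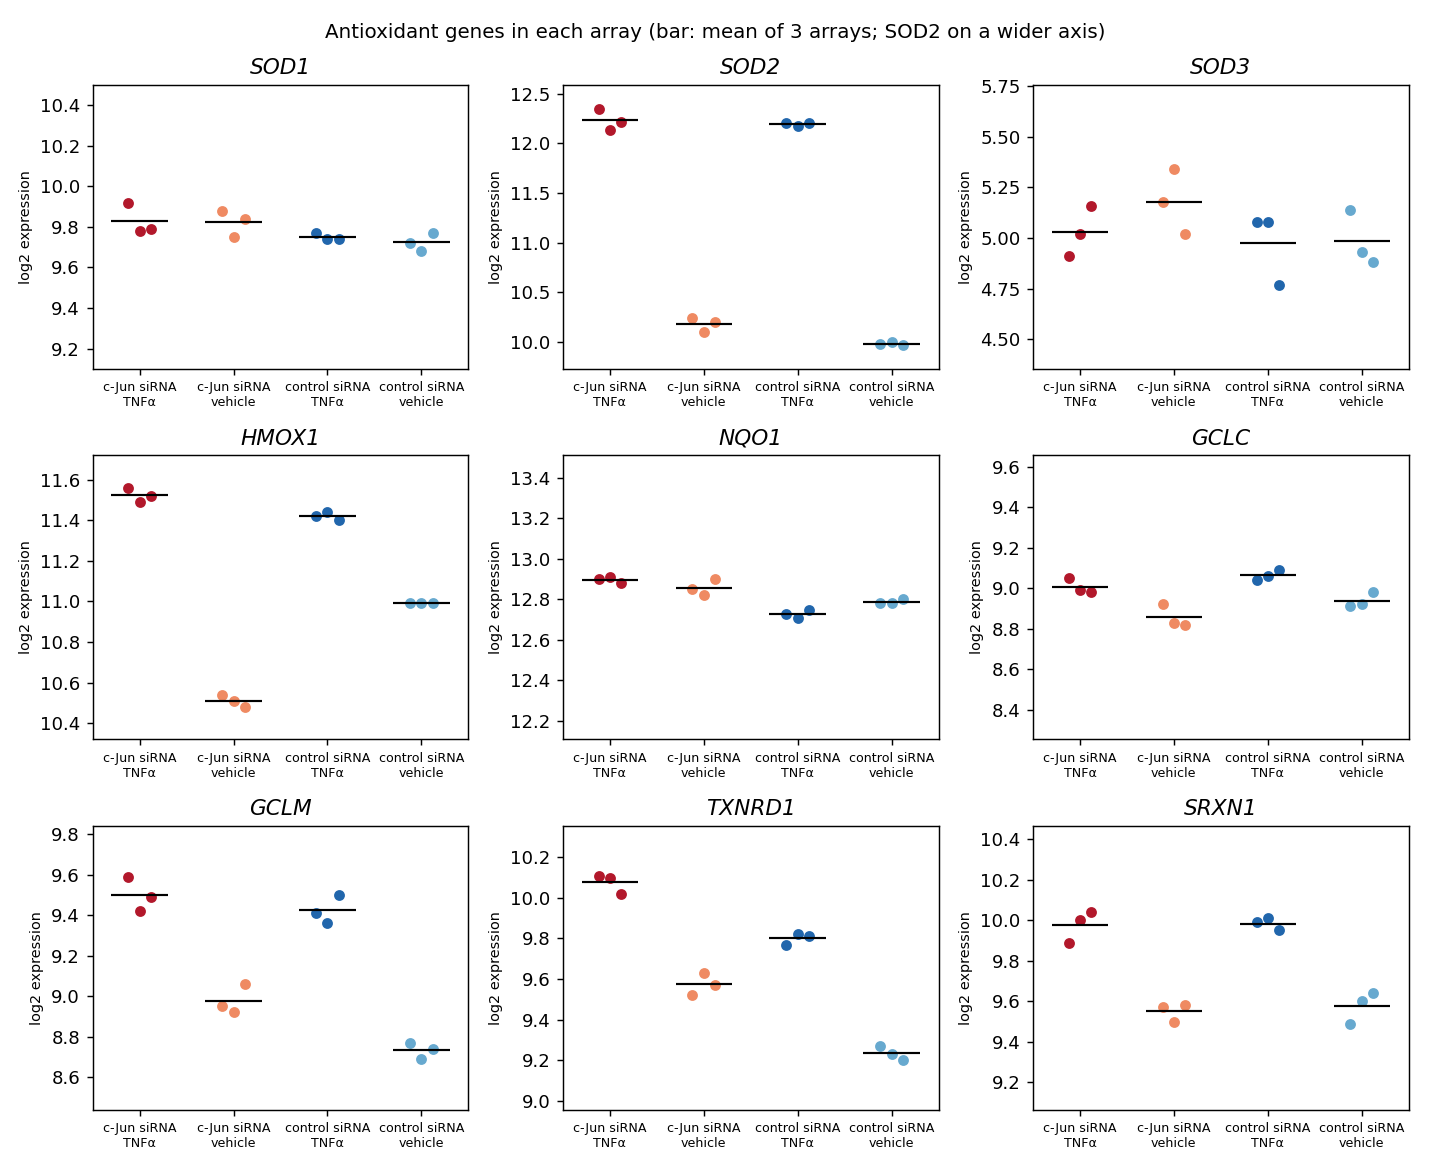
Log2 expression of each of the 9 genes in every array, one panel per gene, with 3 points per group and a bar at their mean. SOD2 sits near 12.2 in both TNFα groups and near 10 in both vehicle groups, and HMOX1 is lowest with c-Jun siRNA and vehicle (10.51) and highest with c-Jun siRNA and TNFα (11.53).

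SOD2 had the largest TNFα response of the 9 genes. Probe set 8130556 read 12.35, 12.13 and 12.22 with c-Jun siRNA and TNFα, and 12.21, 12.17 and 12.20 with control siRNA and TNFα. It read 10.24, 10.10 and 10.20 with c-Jun siRNA and vehicle, and 9.98, 10.00 and 9.97 with control siRNA and vehicle. Every TNFα array lay far above every vehicle array, and the TNFα groups overlapped each other. TNFα raised SOD2 4.15-fold with c-Jun siRNA (log2 fold change 2.05 ± 0.046, SE, n = 3 per group, limma adjusted p = 1.75e-16) and 4.63-fold with control siRNA (2.21 ± 0.046, adjusted p = 2.83e-17). By size of rise it stood at place 67 of 17958 genes with c-Jun siRNA and at place 100 with control siRNA. The knockdown raised SOD2 with vehicle by 0.20 ± 0.046 (adjusted p = 0.00275), with no overlap of the arrays. With TNFα the c-Jun siRNA difference was 0.04 (95% interval -0.06 to 0.13, adjusted p = 0.621). The interaction was -0.16 (interval -0.29 to -0.02, adjusted p = 0.211), and it passed without c-Jun siRNA TNFα replicate 1 (-0.22, adjusted p = 0.0318; 30 alternatives gave 0.0318 to 0.424).

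Neither of the other dismutases passed in any comparison. SOD1 (probe set 8068168) averaged 9.83 ± 0.077 under c-Jun siRNA and 9.75 ± 0.013 under control siRNA in the TNFα groups (SD, n = 3 each). In the vehicle groups it averaged 9.82 ± 0.068 under c-Jun siRNA and 9.72 ± 0.046 under control siRNA. Neighbouring groups in order of level overlapped throughout. With TNFα, however, the c-Jun siRNA arrays (9.78 to 9.92) did not overlap the control siRNA arrays (9.74 to 9.77). Its TNFα difference was 0.01 with c-Jun siRNA (95% interval -0.08 to 0.10) and 0.02 with control siRNA (-0.07 to 0.12). With c-Jun siRNA it was 0.08 higher under TNFα (adjusted p = 0.199) and 0.10 higher under vehicle (adjusted p = 0.113). The vehicle difference passed with array weights (0.11, adjusted p = 0.0462) and when replicate 2 of c-Jun siRNA with vehicle was left out (0.14, adjusted p = 0.0355). The 32 alternatives gave adjusted p-values of 0.0355 to 0.695. SOD3 (probe set 8094372) was dim, below the array medians, with 30.6% of genes dimmer. It ranged from 4.91 to 5.16 with c-Jun siRNA and TNFα, 4.77 to 5.08 with control siRNA and TNFα, 5.02 to 5.34 with c-Jun siRNA and vehicle, and 4.88 to 5.14 with control siRNA and vehicle. All 4 groups overlapped, and its standard error of 0.10 was the widest of the 9 genes.

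HMOX1, which encodes the inducible haem oxygenase, was the member whose TNFα response differed between the siRNAs. Probe set 8072678 read 11.56, 11.49 and 11.52 with c-Jun siRNA and TNFα, and 11.42, 11.44 and 11.40 with control siRNA and TNFα. With vehicle it read 10.54, 10.51 and 10.48 under c-Jun siRNA, and 10.99 in all 3 arrays under control siRNA. No group overlapped another: the knockdown arrays were the lowest of the 12 with vehicle and the highest with TNFα. TNFα raised HMOX1 2.02-fold with c-Jun siRNA (1.01 ± 0.029, SE, adjusted p = 6.89e-15) and 1.35-fold with control siRNA (0.43 ± 0.029, adjusted p = 8.5e-10). The responses differed by 0.58 ± 0.041 (95% interval 0.49 to 0.67, adjusted p = 4.95e-08), place 25 of 17958 genes by p. It kept its call in all 30 alternatives, over adjusted p-values of 3.37e-09 to 4.21e-05. Its SD with control siRNA and vehicle was 0, as 24 genes have 3 equal deposited values in that group, and the test pools the spread over groups and genes.

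The siRNA effect on HMOX1 had opposite signs in the 2 treatments, as it also had for MAFF and TXNIP, described below. The same held for TNFAIP3 and ICAM1 of the NF-kB response. TNFAIP3 stood at -0.24 with TNFα and 0.89 with vehicle, and ICAM1 at -0.19 and 0.33, all called. With TNFα HMOX1 stood 0.10 ± 0.029 higher in the c-Jun siRNA arrays (adjusted p = 0.0107). With vehicle it fell by 0.48 ± 0.029 (adjusted p = 5.15e-10), at 71.9% of the control siRNA level. By depth of fall with vehicle it stood at place 396 of 17958 genes. The small rise with TNFα lost its call without the mean-variance trend (adjusted p = 0.0543), without control siRNA TNFα replicate 3 (0.09, 0.054) and without c-Jun siRNA TNFα replicate 1 (0.09, 0.0541). Within position column 7 it was 0.07 (adjusted p = 0.307) and within column 9 it was 0.12 (0.0896), over a range of 0.00477 to 0.307 in 33 alternatives. The fall with vehicle was -0.48 within column 5 (adjusted p = 1.3e-06), where 1 control siRNA array stands against 3.

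**Figure D2:**
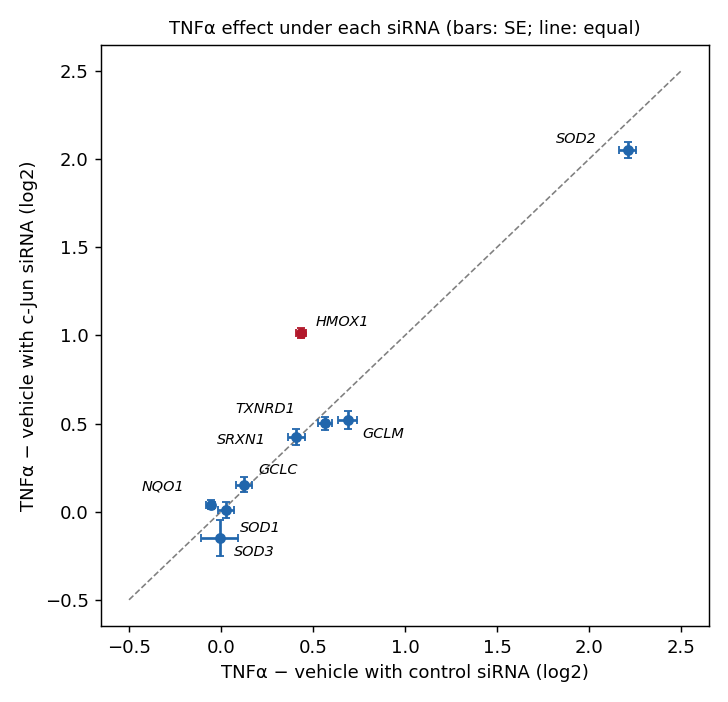
TNFα minus vehicle (log2) for the 9 genes, with c-Jun siRNA on the vertical axis and control siRNA on the horizontal axis, standard errors as bars and equal responses as a dashed line. HMOX1 (red) lies above the line at 1.01 against 0.43, and SOD2 lies at 2.05 against 2.21.

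Glutathione synthesis starts with glutamate-cysteine ligase, whose modifier subunit is GCLM and whose catalytic subunit is GCLC, and TNFα raised both. GCLM (probe set 7917779) read 9.59, 9.42 and 9.49 with c-Jun siRNA and TNFα, and 9.41, 9.36 and 9.50 with control siRNA and TNFα. With vehicle it read 8.95, 8.92 and 9.06 under c-Jun siRNA, and 8.77, 8.69 and 8.74 under control siRNA. The TNFα groups overlapped each other and lay above both vehicle groups, which did not overlap. TNFα raised GCLM 1.43-fold with c-Jun siRNA (0.52 ± 0.052, adjusted p = 2.24e-07) and 1.61-fold with control siRNA (0.69 ± 0.052, adjusted p = 3.87e-09). The knockdown raised it by 0.24 ± 0.052 with vehicle (adjusted p = 0.00124), and the difference with TNFα was 0.08 (95% interval -0.03 to 0.19). Its interaction of -0.17 (interval -0.32 to -0.01) did not pass (adjusted p = 0.252).

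GCLC (probe set 8127158) moved by 0.15 or less on the log2 scale. It ranged from 8.98 to 9.05 with c-Jun siRNA and TNFα, 9.04 to 9.09 with control siRNA and TNFα, 8.82 to 8.92 with c-Jun siRNA and vehicle, and 8.91 to 8.98 with control siRNA and vehicle. TNFα raised it 1.11-fold with c-Jun siRNA (0.15 ± 0.042, adjusted p = 0.0088) and 1.09-fold with control siRNA (0.12 ± 0.042, adjusted p = 0.0257). Both calls ended with arrays centred on their medians, at adjusted p = 0.0584 with c-Jun siRNA and 0.0635 with control siRNA. The c-Jun siRNA call also ended with the column as a fixed block (0.22, adjusted p = 0.111), the highest of 31 alternatives, of which the lowest was 0.00429. The control siRNA call also ended without control siRNA vehicle replicate 1 or 2 (0.085 and 0.0771) and without control siRNA TNFα replicate 2 or 3 (0.0554 and 0.0986), over a range of 0.0168 to 0.0986. Its c-Jun siRNA differences, -0.05 with TNFα and -0.08 with vehicle, did not pass (adjusted p = 0.401 with TNFα and 0.166 with vehicle).

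TXNRD1, the cytosolic thioredoxin reductase, was higher with each treatment alone and highest with both. Probe set 7958174 read 10.11, 10.10 and 10.02 with c-Jun siRNA and TNFα, and 9.77, 9.82 and 9.81 with control siRNA and TNFα. With vehicle it read 9.52, 9.63 and 9.57 under c-Jun siRNA, and 9.27, 9.23 and 9.20 under control siRNA. None of the 4 groups overlapped. TNFα raised it 1.42-fold with c-Jun siRNA (0.50 ± 0.039, adjusted p = 9.19e-09) and 1.48-fold with control siRNA (0.57 ± 0.039, adjusted p = 1.25e-09). The knockdown raised it 1.21-fold with TNFα (0.27 ± 0.039, adjusted p = 2.48e-05) and 1.27-fold with vehicle (0.34 ± 0.039, adjusted p = 1.95e-06). Its interaction was -0.07 (95% interval -0.18 to 0.05, adjusted p = 0.636).

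SRXN1, the sulfiredoxin gene, followed TNFα with no detected siRNA effect. Probe set 8064375 read 9.89, 10.00 and 10.04 with c-Jun siRNA and TNFα, and 9.99, 10.01 and 9.95 with control siRNA and TNFα. The vehicle arrays read 9.57, 9.50 and 9.58 under c-Jun siRNA, and 9.49, 9.60 and 9.64 under control siRNA. The siRNA groups overlapped within each treatment, and the treatments did not overlap. TNFα raised SRXN1 1.34-fold with c-Jun siRNA (0.43 ± 0.045, adjusted p = 5.18e-07) and 1.33-fold with control siRNA (0.41 ± 0.045, adjusted p = 6.53e-07). The siRNA differences had 95% intervals of -0.10 to 0.09 with TNFα and -0.12 to 0.07 with vehicle.

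NQO1, the quinone reductase often used as a readout of NRF2, was among the brightest genes, with 99.8% of genes dimmer, and did not pass for TNFα. Probe set 8002303 read 12.90, 12.91 and 12.88 with c-Jun siRNA and TNFα, and 12.73, 12.71 and 12.75 with control siRNA and TNFα. The vehicle arrays read 12.85, 12.82 and 12.90 under c-Jun siRNA, and 12.78, 12.78 and 12.80 under control siRNA. The knockdown arrays lay above the control siRNA arrays in both treatments. Its TNFα difference was 0.04 with c-Jun siRNA (95% interval -0.02 to 0.09, adjusted p = 0.309) and -0.06 with control siRNA (-0.11 to 0.00, adjusted p = 0.0955). With control siRNA the TNFα arrays (12.71 to 12.75) nevertheless lay below the vehicle arrays (12.78 to 12.80) without overlap. The knockdown raised it 1.12-fold with TNFα (0.16 ± 0.026, adjusted p = 6.02e-05), and the difference with vehicle was 0.07 ± 0.026 (adjusted p = 0.0518). That last value passed in 11 of 32 alternatives, over adjusted p-values of 0.0207 to 0.406. How far the scanner's range limits so bright a gene was not tested.

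**Figure D3:**
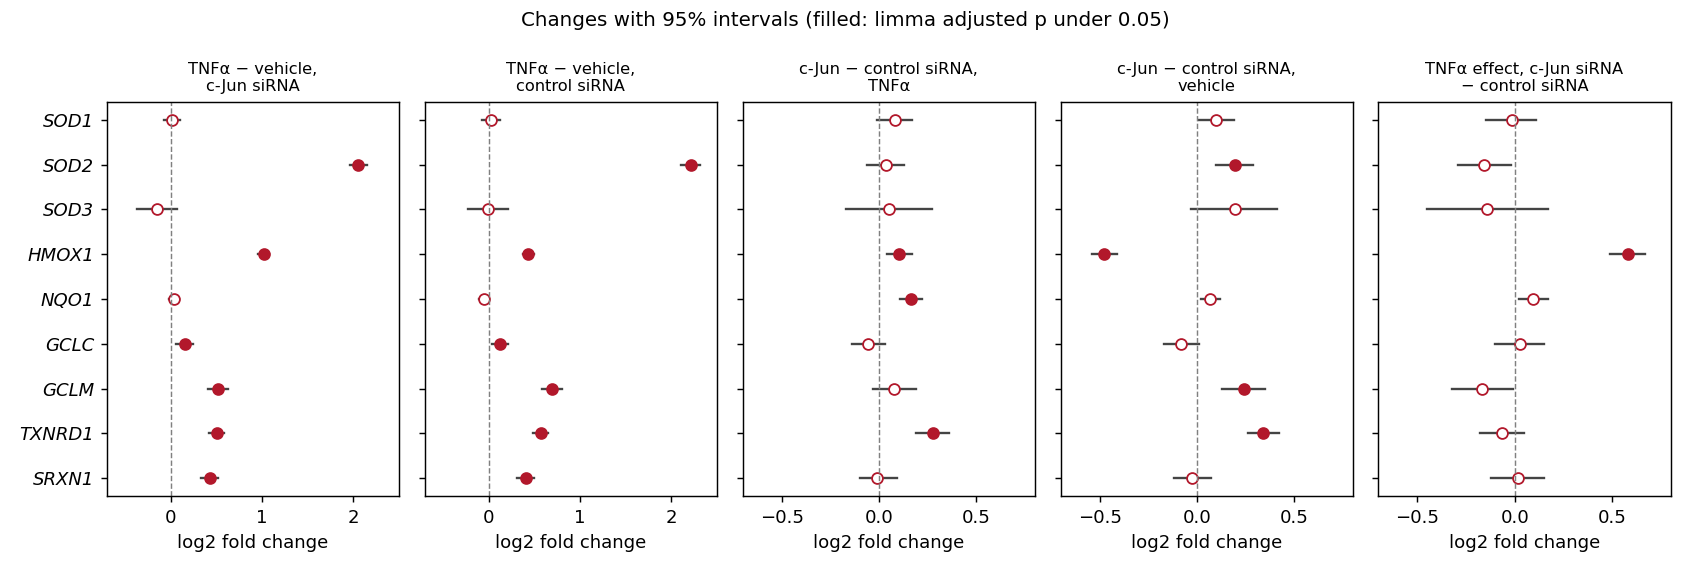
Log2 fold changes of the 9 genes with 95% intervals in 5 panels, one per comparison and the last for the interaction, filled where the limma adjusted p was under 0.05. Only HMOX1 is filled in the last panel, at 0.58, and its siRNA effect with vehicle is the one filled point below 0, at -0.48.

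Of 11 measured regulators of NRF2 and of its DNA element, 6 rose and none fell with TNFα and c-Jun siRNA (median log2 fold change 0.12), and 6 rose and 1 fell with TNFα and control siRNA (median 0.17). Over all genes 11.3% rose and 18.3% fell with TNFα under c-Jun siRNA, and 13.8% rose and 21.9% fell under control siRNA. The list mixes genes that help NRF2 with genes that oppose it. KEAP1 was among those that rose with c-Jun siRNA (0.12 ± 0.036), and BACH1 among those with control siRNA (0.17 ± 0.065). Under the other siRNA KEAP1 (0.05) and BACH1 (-0.01) did not pass. Both were named here after their values were seen. BACH2, below the array medians in level, was the 1 that fell with control siRNA, at -0.43. NFE2L2, which encodes NRF2, rose by 0.61 ± 0.034 with c-Jun siRNA and by 0.76 ± 0.034 with control siRNA. The small MAF gene MAFF rose by 0.86 ± 0.075 with c-Jun siRNA and by 1.63 ± 0.075 with control siRNA, and its interaction of -0.77 ± 0.11 passed (adjusted p = 0.00012), opposite in sign to that of HMOX1. The c-Jun siRNA effect on MAFF was -0.32 ± 0.075 with TNFα and 0.45 ± 0.075 with vehicle, and both passed. SQSTM1, which encodes p62, an adaptor that binds KEAP1, rose by 0.39 with c-Jun siRNA and by 0.48 with control siRNA. The knockdown changed NFE2L2 by -0.11 ± 0.034 with TNFα (adjusted p = 0.0164), and its difference of 0.04 with vehicle did not pass (adjusted p = 0.427). Against control siRNA, 1 regulator was higher and 5 were lower with TNFα, and 3 were higher and 3 lower with vehicle. Over all genes 14.1% were higher and 14.4% lower with c-Jun siRNA under TNFα, and 14.4% were higher and 14.5% lower under vehicle.

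Of 24 other NRF2 targets measured, 7 rose and 5 fell with TNFα and c-Jun siRNA, and 7 rose and 6 fell with TNFα and control siRNA, with a median of 0.06 under c-Jun siRNA and -0.02 under control siRNA, beside -0.02 over all genes. The shares of all genes were 11.3% higher and 18.3% lower under c-Jun siRNA, and 13.8% higher and 21.9% lower under control siRNA. The cystine importer gene SLC7A11, which feeds glutathione synthesis, rose by 0.16 ± 0.051 with c-Jun siRNA and by 0.48 ± 0.051 with control siRNA, and its interaction of -0.32 ± 0.072 passed (adjusted p = 0.012). ABCC1, an exporter of glutathione conjugates, fell, at -0.52 with c-Jun siRNA and -0.48 with control siRNA. AKR1C2, a ketosteroid reductase, rose by 1.16 with c-Jun siRNA and by 0.71 with control siRNA, and its close paralogues may share probe signal. With c-Jun siRNA 8 were higher and 3 lower under TNFα, and 7 were higher and 9 lower under vehicle. Among the higher were the exporter gene ABCC3, by 0.58 with TNFα and 0.61 with vehicle, and SLC7A11, by 0.34 and 0.66. Among the lower was AKR1C1, at -0.58 with TNFα and -0.6 with vehicle. A second AKR1C1 probe set gave -0.19 with TNFα and -0.47 with vehicle. For the TNFα effect it gave 0.03 with c-Jun siRNA and -0.25 with control siRNA. The probe set used, counted among those that rose, gave 0.51 and 0.49, and the r between them was 0.39. All genes had 14.1% higher and 14.4% lower under TNFα, and 14.4% higher and 14.5% lower under vehicle.

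Of 19 measured glutathione genes beyond the ligase, 3 rose and 5 fell with TNFα and c-Jun siRNA, and 2 rose and 8 fell with TNFα and control siRNA, where all genes had 11.3% higher and 18.3% lower with c-Jun siRNA and 13.8% higher and 21.9% lower with control siRNA. GPX3, the secreted glutathione peroxidase, rose by 1.13 ± 0.080 with c-Jun siRNA and 0.52 ± 0.080 with control siRNA, and its interaction of 0.61 ± 0.11 (adjusted p = 0.00208) had the sign and about the size of that of HMOX1. The transferase gene GSTA4 fell, at -0.54 with c-Jun siRNA and -0.46 with control siRNA. With c-Jun siRNA 10 were higher and 1 lower under TNFα, and 8 were higher and 1 lower under vehicle, led by CHAC1, a glutathione-degrading enzyme, at 1.11 ± 0.067 with TNFα and 0.95 ± 0.067 with vehicle. The medians over that list were 0.12 with TNFα and 0.08 with vehicle, beside 0.00 with TNFα and -0.01 with vehicle over all genes, of which 14.1% were higher and 14.4% lower with TNFα, and 14.4% higher and 14.5% lower with vehicle.

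Of 17 thioredoxin, peroxiredoxin, catalase and related genes, 1 rose and 5 fell with TNFα under each siRNA. The 6 called were near the background of 29.6% of all genes with c-Jun siRNA and 35.7% with control siRNA. The genes that rose were TXNRD2 with c-Jun siRNA, by 0.17, and the peroxiredoxin PRDX6 with control siRNA, by 0.16, both named here after their values were seen. Catalase, CAT, fell with TNFα, with log2 fold changes of -0.39 ± 0.041 with c-Jun siRNA and -0.36 ± 0.041 with control siRNA. TXNIP, which binds and inhibits thioredoxin, also fell, at -0.44 ± 0.066 with c-Jun siRNA and -1.17 ± 0.066 with control siRNA, and its interaction of 0.73 ± 0.093 passed (adjusted p = 5.04e-05). The c-Jun siRNA effect on TXNIP was 0.38 ± 0.066 with TNFα and -0.35 ± 0.066 with vehicle, and both passed. With c-Jun siRNA 7 were higher and 1 lower under TNFα, and 6 were higher and 3 lower under vehicle, where all genes had 14.1% higher and 14.4% lower under TNFα, and 14.4% higher and 14.5% lower under vehicle. The sestrin gene SESN2 was higher by 0.41 with TNFα and by 0.59 with vehicle. Of 13 genes for sources of superoxide or peroxide, 11 lay below the array medians in level. AOX1, an aldehyde oxidase, was the 1 that passed, higher with TNFα by 0.52 under c-Jun siRNA and 0.20 under control siRNA. Of all genes 29.6% passed with TNFα under c-Jun siRNA and 35.7% under control siRNA. With c-Jun siRNA AOX1 was higher by 0.75 under TNFα and by 0.43 under vehicle. There 28.5% of all genes passed under TNFα and 28.9% under vehicle.

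**Figure D4:**
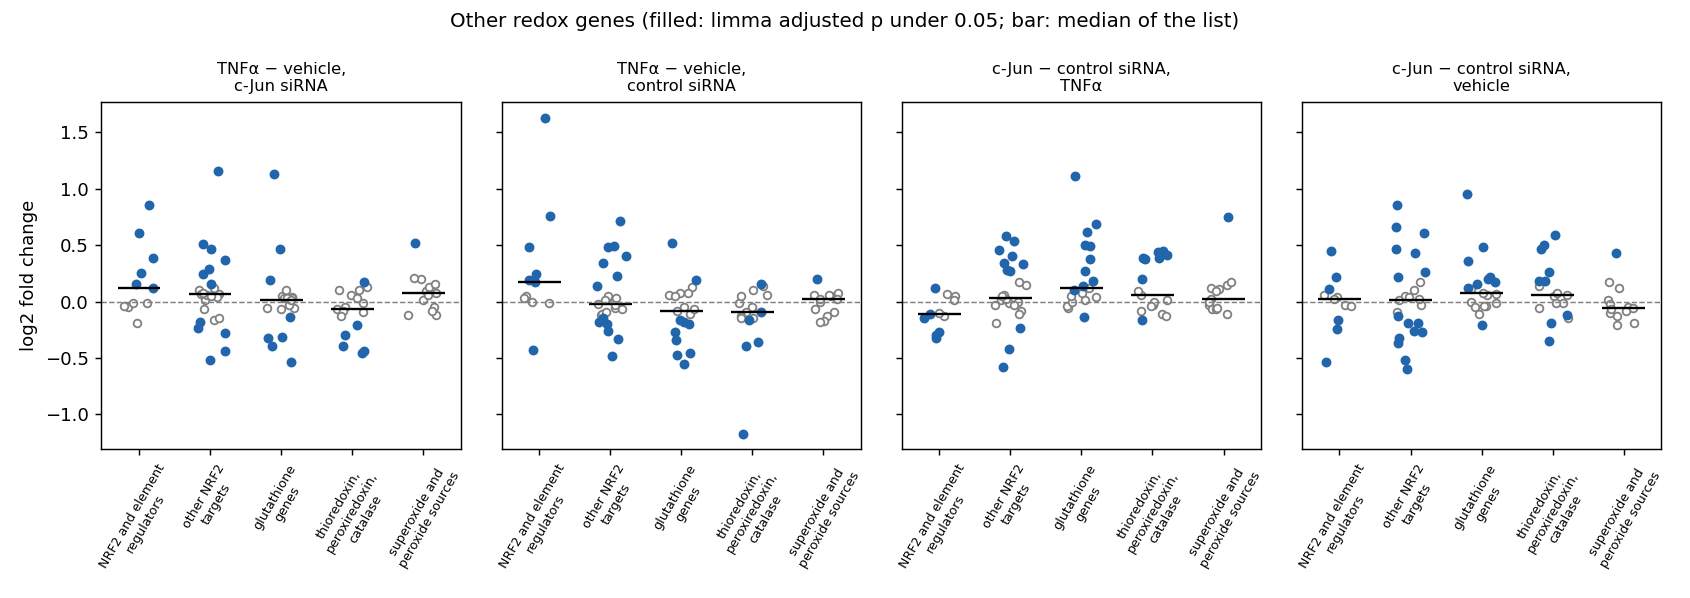
Log2 fold changes of every measured gene of 5 redox lists, 1 point per gene, with 1 panel per comparison, filled where the limma adjusted p was under 0.05, with a bar at the list's median. The topmost point with TNFα and control siRNA is MAFF at 1.63 and the lowest is TXNIP at -1.17.

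SOD2 was set beside 7 other genes of the NF-kB response. With TNFα all 7 rose under both siRNAs, with a median of 2.35 with c-Jun siRNA and 3.06 with control siRNA. Of all genes 11.3% rose with c-Jun siRNA and 13.8% with control siRNA. Against control siRNA, c-Jun siRNA with TNFα had 2 higher and 2 lower, with a median of -0.01, where SOD2 differed by 0.04. With c-Jun siRNA and vehicle all 7 were higher, with a median of 0.89, where SOD2 was higher by 0.20. All genes had 14.1% higher and 14.4% lower with TNFα, and 14.4% higher and 14.5% lower with vehicle. The interaction passed for 6 of the 7, all negative, with a median of -1.02, against -0.16 for SOD2. It passed for 5.47% of all genes, 3.59% with a lower value. NFKBIA, the inhibitor that NF-kB itself induces, had an interaction of -1.28 ± 0.068. The comparisons share arrays, so the values are given side by side only.

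Genes whose log2 values followed those of a member most closely over the 12 arrays were found by Pearson's r among 8978 genes at or above the median level, as a description in which all points share the 4 groups. For SOD2 they were VCAM1, BMP2K and CFB, at 0.998, 0.998 and 0.997, and 284 genes reached 0.95. For HMOX1 they were SAT1, SLC25A37 and HMGCS1, at 0.981, 0.980 and 0.979, with 21 genes at 0.95 or more. GCLM was closest to TNFRSF11B (0.993), TXNRD1 to ELAVL2 (0.993) and SRXN1 to SUSD6 (0.980). GCLC reached 0.928 at most, with PDE6D, and NQO1 reached 0.954, with CENPK. Among the members SOD2 and GCLM had r = 0.96, SOD2 and SRXN1 0.96, and GCLM and TXNRD1 0.94, while NQO1 and SOD2 had -0.03. A second probe set of SLC25A37 had an r of 0.95 with the first, and 2 others of CFB had 1.00.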

How the data were processed

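Total RNA from the 12 arrays was labelled and hybridised to Affymetrix gene arrays. Per the submitters' processing notes, the authors used Affymetrix Expression Console 1.1 and PLIER, with no role given for either. The deposited values are used as log2 expression per probe set. That base is inferred from their range of 2.27 to 14.0, and a common scale from quartiles that differ by at most 0.061 between arrays. Background correction and normalisation method are not given in the sources used here, and nothing was normalised further. Signal below background cannot be marked, since no detection call was used here. Precision is limited by having 3 arrays in a group.

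Of 33297 probe sets 19181 had 1 gene symbol in the platform's table, 2055 several and 12061 none. Symbols were updated through Entrez identifiers. For genes with more than 1 probe set (895), that with the highest mean over 12 arrays was used, giving 17958 genes. limma 3.58.1 (R 4.3.3) was fitted to the 12 arrays together, 1 mean for each group, leaving 8 residual degrees of freedom, with a mean-variance trend. Two-sided p-values were adjusted by Benjamini-Hochberg over the 17958 genes in each comparison, and called means an adjusted p under 0.05. Errors of fold changes are standard errors and those of means are SDs. The fit was tested on simulated data. Tables and plots used Python 3.11.15, pandas 2.3.3 and matplotlib 3.10.9.

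Members, gene lists and alternatives were chosen with earlier results of these data known. Named genes are the members, JUN, up to 4 called genes per list and comparison with the largest change, and the 3 genes most like each called member, of which not all are printed. Listed genes without a probe set of their own are not analysed here. Alternatives were floors at 4 and 5, centring on array medians, quantile normalisation, leaving out dim genes, other uses of probe sets, other variance models, array weights, fewer groups, stricter thresholds, blocks for replicate number and position column, averaging of a possible repeat run, each array left out, and, chosen after seeing the data, comparisons within a position column.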

Additional observations from a re-analysis of the deposited data

Results flagged for a closer look

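HMOX1 was picked out because its TNFα effect differed between the siRNAs by a test of the difference itself. The effect was 1.01 with c-Jun siRNA and 0.43 with control siRNA (log2), a difference of 0.58 ± 0.041 (SE, n = 3 arrays per group, limma adjusted p = 4.95e-08). All 3 c-Jun siRNA arrays lay above the control siRNA arrays with TNFα and below them with vehicle. Groups of 3 arrays were too small for a search for single deviating arrays.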

How the results depend on the processing

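Of 1417 values of the 45 results (9 genes in 5 comparisons) under 29 to 33 alternatives each, 1344 kept their direction and their side of the threshold, 26 lost a call, 14 gained one and 33 changed sign. Every change of sign was in a value that was not called in the main test or in the alternative. The replicate block changed no call (6, 6, 4, 3 and 1 genes called for TNFα with control siRNA, TNFα with c-Jun siRNA, c-Jun siRNA with vehicle, c-Jun siRNA with TNFα, and the interaction, as without it), and the numbers did not pair the arrays, with deviations from the group means correlating between -0.059 and 0.088 over 18 pairs of the same number. Counts of called genes moved by over 1.5 times with a change of at least 0.5 also required, to 3 for TNFα with control siRNA and to 0 for c-Jun siRNA under either treatment, where limma alone called 6, 4 and 3. With each array left out in turn the counts ran from 5 to 6, 6 to 6, 4 to 6, 2 to 3 and 1 to 2 in the same order, the 2 being HMOX1 and SOD2 without c-Jun siRNA TNFα replicate 1. Signs changed for SOD1 with TNFα and c-Jun siRNA after quantile normalisation (-0.0028), centring (-0.02), array weights (-0.01) and averaging of replicates 1 and 3 (-0.0036), and for its interaction with the column as a fixed block (0.02). They changed for SRXN1 after centring (c-Jun siRNA with vehicle 0.01 and with TNFα 0.0025, interaction -0.01) and with array weights (c-Jun siRNA with TNFα 0.0028). Within position column 7 the c-Jun siRNA effect with TNFα turned for SOD2 (-0.06), GCLM (-0.01) and SRXN1 (0.02), and within column 9 for SOD3 (-0.04). A floor at 5 turned SOD3 with TNFα and control siRNA (0.01). With single arrays left out, signs changed within ranges of -0.06 to 0.1 (SOD3) for TNFα with control siRNA, -0.04 to 0.04 (SOD1) for TNFα with c-Jun siRNA, -0.07 to 0.01 (SRXN1) for c-Jun siRNA with vehicle, and -0.02 to 0.09 (SOD2), -0.05 to 0.11 (SOD3) and -0.04 to 0.03 (SRXN1) for c-Jun siRNA with TNFα. The interaction ranged from -0.06 to 0.01 for SOD1 and -0.01 to 0.06 for SRXN1. The cause was not tested. Over all genes, calls fell to 2376 of 17958 for TNFα with c-Jun siRNA and 531 for the interaction with the column as a fixed block, against 5320 and 983, and to 3182 within column 9 for c-Jun siRNA with TNFα, against 5116. With an adjusted p under 0.01 the interaction called 553. With a change of at least 0.5 required, calls were 1519, 1176, 904, 858 and 315, against 6416, 5320, 5183, 5116 and 983. SOD3 was the 1 member below the array medians, has the widest standard errors, and has no value with the dimmest 50% of genes left out.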
